A study of Mus musculus with 6 samples.

Results

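Regulators of G protein signaling (RGS proteins) were examined in follicular B cells from WT and GPR174-deficient mice. The group was a list of 8 genes chosen by name: Rgs1, Rgs2, Rgs3, Rgs10, Rgs14, Rgs16, Rgs18 and Rgs19. Of these, 7 were among the 12431 genes of the count table, and all 7 passed the filter on low counts that left 10514 tested genes. Rgs16 was not in the count table, so only its position and promoter sequence could be examined. The question was whether Rgs2 differed between genotypes and how the other RGS genes compared with it.

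Spleens of adult male mice gave the cells, which were sorted as follicular B cells (CD21/35- CD23+) and cultured for 1 h in complete RPMI without added stimulus. WT cells were Gpr174+/Y and KO cells were Gpr174-/Y, with 3 libraries of each. Gpr174 is an X-linked gene for a receptor of lysophosphatidylserine, and a tdTomato reporter stands in for its coding exon in the KO mice. By the genotype label, the deletion was not restricted to B cells. Each library was made from RNA primed at the 3′ ends of transcripts, and nothing beyond 3 mice per genotype is stated about how mice were assigned to libraries.

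Total counts lay between 8452460 and 10944833 per library. Levels are given as CPM, counts per 1000000 of the scaled library size. On the first principal component of the 500 most variable genes, WT replicate 2 scored 32.5 and the other libraries between -8.18 and -4.33, so results that rested on that library are given with and without it. Gpr174 itself was still counted in KO cells, at 99.95 CPM ± 0.21 (SD, n = 3) against 127.6 CPM ± 7.43 in WT cells (edgeR adjusted p = 0.0359), and the counts do not show which part of the gene the reads cover, so this gene did not check the labels. Follicular B cell markers summed to between 3976 and 4132 CPM in WT and between 4570 and 4678 CPM in KO libraries. Of the 7 such markers tested, 1 was called, beside 1.82% of all tested genes. It was Cd79b, a B cell receptor signaling chain, at a log2 fold change (WT over KO) of -0.39. Cr2, which encodes CD21/35, had 1043 CPM ± 34.4 in WT cells and 1057 CPM ± 96.8 in KO cells, which were sorted as low for that protein.

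Heterotrimeric G proteins signal while their α subunit holds GTP. RGS proteins bind the active α subunit and speed GTP hydrolysis, which ends the signal, and most of them act on the Gi and Gq classes rather than on Gs. In B cells, RGS proteins limit the response to chemokines and other attractants that act through Gi. Rgs1, Rgs2, Rgs3, Rgs16 and Rgs18 belong to the R4 family, mostly small proteins built around the RGS domain, Rgs10 and Rgs14 to the R12 family, and Rgs19 to the RZ family. Rgs2 is unusual among them in its preference for Gq, and it can also dampen cAMP production by adenylyl cyclases.

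The R4 members Rgs2, Rgs1 and Rgs18 lie in this order on chromosome 1 (mm10, minus strand). Among genes of the count table, only Rgs13, a further R4 gene, lies between them, and it is between Rgs2 and Rgs1. Genes absent from the count table were not looked for. Rgs2 has 5 exons and spans chr1:143999338-144004161, Rgs1 spans chr1:144242296-144249242, and Rgs18 spans chr1:144752683-144775435. Rgs3 is at chr4:62559847-62704001 on the plus strand, Rgs10 at chr7:128373621-128418758 on the minus strand, Rgs14 at chr13:55369732-55384687 on the plus strand, and Rgs19 at chr2:181688419-181693977 on the minus strand. In the annotation Rgs3 overlaps Gm11209 on the opposite strand and Rgs10 overlaps Gm15503 on its own strand, so reads of these pairs may be split or shared.

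Promoter sequence from RefSeq (GRCm38.p6, 250 bases before to 50 after the transcription start) was given for 5 of the 8 genes: Rgs2, Rgs3, Rgs10, Rgs16 and Rgs19. It was searched on both strands for TGACG, the core of the cAMP response element that CREB family factors bind, and for the full palindrome TGACGTCA, which contains TGACG on each strand. Rgs2, the gene called higher in WT cells, and Rgs19, the gene with the lowest log2 fold change, are shown for the part of the window that ends 51 bases before the start, with TGACG or its reverse complement CGTCA in capitals. For Rgs19, the outermost of 3 annotated starts is shown.
Rgs2, chr1:144004200-144004399, minus strand: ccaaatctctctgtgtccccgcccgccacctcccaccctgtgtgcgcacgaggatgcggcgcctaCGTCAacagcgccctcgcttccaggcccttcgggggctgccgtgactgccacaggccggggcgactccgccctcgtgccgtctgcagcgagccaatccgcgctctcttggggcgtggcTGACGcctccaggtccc
Rgs19, chr2:181694028-181694227, minus strand: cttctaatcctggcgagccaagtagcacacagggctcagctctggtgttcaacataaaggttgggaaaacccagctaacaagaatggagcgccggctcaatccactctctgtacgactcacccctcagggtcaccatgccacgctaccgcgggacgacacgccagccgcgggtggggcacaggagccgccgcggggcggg

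The Rgs2 window held 2 copies of TGACG, with their first bases at -67 on the strand of the gene and at -185 on the other strand. Over all 32817 promoter windows, 20.8% held at least 1 copy and 5.0% held 2 or more. Of the 7617 tested genes with a window, 37.0% held at least 1 copy in any of their windows. The share with 2 or more was not counted for the tested genes. The windows of Rgs3, Rgs10, Rgs16 and Rgs19 held none, and none of the 5 genes had the full TGACGTCA, which 1.8% of all windows and 3.9% of the tested genes held. A match describes these letters in this window and no binding was measured.

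Rgs2 mRNA was more abundant in WT than in KO cells. Its level was 633.8, 607.9 and 521.4 CPM in WT replicates 1 to 3 and 304.3, 304.9 and 349.0 CPM in KO replicates 1 to 3. All WT libraries lay above all KO libraries, and the gap between the lowest WT and the highest KO library was wider than the spread within either group. The means were 588 CPM ± 58.9 (SD, n = 3) and 319 CPM ± 25.6 (SD, n = 3), a 1.84-fold difference. The log2 fold change was 0.88 ± 0.08 (SE, 95% interval 0.72 to 1.04), with an edgeR adjusted p of 1.65e-08. Each value rests on between 2797 and 6928 reads per library. In bulk RNA, a larger share of cells with the transcript and more transcript per cell cannot be told apart.

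Among all tested genes, 191 or 1.82% were called at an adjusted p under 0.05. Those higher in WT made up 1.3% and those lower in WT 0.514%. Of the 7 RGS genes tested, 1 was called higher in WT, Rgs2, and 0 were called lower. At an unadjusted p under 0.05, edgeR had 2 higher and 1 lower, and no RGS gene was called lower by DESeq2 or limma-voom. By p, Rgs2 ranked 9 among all tested genes. WT and KO values did not overlap for 3 of the 7 RGS genes (Rgs1, Rgs2 and Rgs10), beside 16.7% of all tested genes. The median log2 fold change was 0.27 over the 7 genes and -0.003 over all tested genes, with 5 of the 7 above 0.

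**Figure D1:**
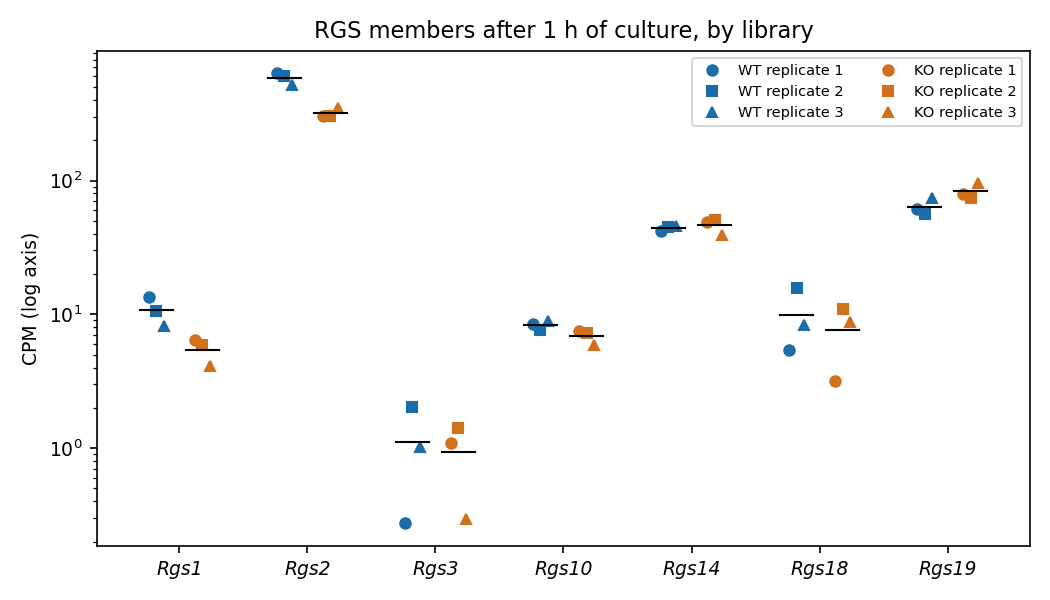
Level of each of the 7 RGS genes in every library, in CPM on a log axis, with WT and KO libraries as points and group means as bars. Rgs2 lay between 521.4 and 633.8 CPM in WT and between 304.3 and 349.0 CPM in KO libraries, without overlap.

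Rgs1, which limits chemokine responses of B cells, had a point estimate as large as that of Rgs2 from far fewer reads. It was counted at 13.4, 10.6 and 8.17 CPM in WT and at 6.37, 5.89 and 4.09 CPM in KO replicates 1 to 3. The groups did not overlap, although the lowest WT and the highest KO library were close. The means were 10.7 CPM ± 2.59 (SD, n = 3) in WT and 5.45 CPM ± 1.2 in KO, a 1.97-fold difference. The log2 fold change of 0.98 ± 0.29 (95% interval 0.38 to 1.58) did not pass the test, with an edgeR adjusted p of 0.0923. Between 42 and 146 reads per library stood behind it, so its standard error was several times that of Rgs2.

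Rgs18, the R4 member best known from platelets and megakaryocytes, was variable within both groups. Its level was 5.40, 15.7 and 8.29 CPM in WT and 3.19, 10.9 and 8.77 CPM in KO replicates 1 to 3. Replicate 2 was the highest in each group and replicate 1 the lowest, and the groups overlapped. The log2 fold change was 0.36 ± 0.46 (95% interval -0.64 to 1.36, adjusted p = 0.827), and it was -0.15 without WT replicate 2. The 7 platelet and megakaryocyte markers summed to 25.5, 33.0 and 39.1 CPM in WT and 34.7, 36.2 and 21.2 CPM in KO replicates 1 to 3. All 7 markers had reads, with Gp9 at 0 in WT replicate 2, and 0 of the 7 were called by edgeR, with 0 at an unadjusted p under 0.05. Their part in the spread of Rgs18 was not tested.

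Rgs3 was close to the limit of detection. It had 3, 17 and 9 reads in WT and 12, 13 and 3 reads in KO replicates 1 to 3. The groups overlapped over nearly their whole range. The log2 fold change was 0.22 ± 0.84, with a 95% interval of -1.51 to 1.95, so that a difference of the size seen for Rgs2 was not detectable at this depth in either direction. Its value was -0.55 without WT replicate 2.

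The R12 family members act on Gi. Rgs10, a short protein with little beside its RGS domain, was counted at 8.42, 7.63 and 8.97 CPM in WT and at 7.55, 7.30 and 5.85 CPM in KO replicates 1 to 3. The groups did not overlap, but the lowest WT and the highest KO library were nearly equal. Its log2 fold change was 0.27 ± 0.28 (95% interval -0.30 to 0.85, adjusted p = 0.777).

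Rgs14, which carries a second site for inactive Gi subunits (a GoLoco motif) and binds Ras and Rap proteins, was counted at 41.6, 44.7 and 45.5 CPM in WT and at 48.6, 50.9 and 39.0 CPM in KO replicates 1 to 3. KO replicates held both the highest and the lowest value. The log2 fold change was -0.07 ± 0.13, with a 95% interval of -0.34 to 0.20 (adjusted p = 0.885), which leaves out a difference of the size of that of Rgs2.

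Rgs19, an RZ family member that acts on Gi, had its point estimate on the other side. Its level was 61.2, 55.8 and 74.6 CPM in WT and 79.9, 74.4 and 95.2 CPM in KO replicates 1 to 3. The groups met, with WT replicate 3 just above KO replicate 2. The means were 63.9 CPM ± 9.67 (SD, n = 3) in WT and 83.2 CPM ± 10.8 in KO. The log2 fold change of -0.38 ± 0.12 (95% interval -0.63 to -0.14) did not pass the test at an adjusted p of 0.116.

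**Figure D2:**
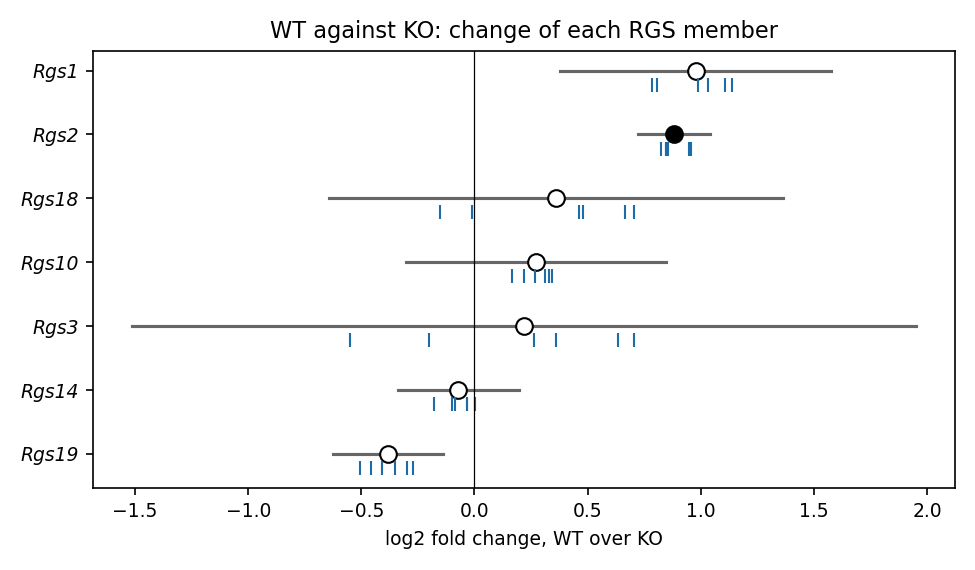
Log2 fold change (WT over KO) of the 7 RGS genes as circles (filled where called) with 95% intervals from edgeR as lines, and the values with each library left out in turn as blue ticks. The interval of Rgs2 runs from 0.72 to 1.04, and those of Rgs3, Rgs10, Rgs14 and Rgs18 span 0.

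Levels of different RGS genes were set side by side per kilobase of transcript. Per kilobase of the longest annotated coding transcript, WT levels were 194.5 CPM ± 19.5 for Rgs2, 42.3 ± 6.40 for Rgs19, 18.7 ± 0.873 for Rgs14, 9.48 ± 0.763 for Rgs10, 4.83 ± 2.63 for Rgs18, 2.79 ± 0.675 for Rgs1 and 0.236 ± 0.187 for Rgs3 (SD, n = 3). In KO cells they were 105.7 CPM per kilobase ± 8.48 for Rgs2, 55.0 ± 7.16 for Rgs19, 19.6 ± 2.68 for Rgs14, 7.84 ± 1.05 for Rgs10, 3.75 ± 1.96 for Rgs18, 1.42 ± 0.312 for Rgs1 and 0.199 ± 0.123 for Rgs3. On this scale the order was the same in both genotypes, and Rgs18 and Rgs1 were the only neighbors in it whose libraries overlapped. Reads primed at 3′ ends do not scale with transcript length, so dividing by length may lower the long transcripts. Undivided, Rgs2, Rgs19 and Rgs14 kept the first places and Rgs3 the last in both genotypes, whereas the order of Rgs1, Rgs10 and Rgs18 by mean CPM differed between genotypes and the range of Rgs10 lay within that of Rgs18 in each.

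Rgs2 thus held most of the RGS reads. Its share of the counts summed over the 7 genes was 82.95%, 81.66% and 78.06% in WT and 67.47%, 66.91% and 69.49% in KO replicates 1 to 3, with no overlap. The summed level of the 7 genes was between 668.0 and 764.1 CPM in WT and between 451.0 and 502.2 CPM in KO libraries. The other 6 genes summed to 130.3, 136.5 and 146.6 CPM in WT and 146.7, 150.8 and 153.2 CPM in KO replicates 1 to 3, so that the lower sum in KO libraries was in Rgs2.

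To compare Rgs2 with the other RGS genes directly, the log2 ratio of Rgs2 to each of them was taken within each library, which needs no scaling between libraries. Against Rgs19, the ratio lay between 2.80 and 3.44 in WT and between 1.87 and 2.03 in KO libraries, a difference of 1.26 ± 0.21 (SE). Against Rgs14, it lay between 3.51 and 3.92 in WT and between 2.58 and 3.16 in KO libraries, a difference of 0.94 ± 0.22. In both cases the genotypes did not overlap, and the exact permutation test over the 20 assignments of 3 against 3 libraries gave p = 0.1, the smallest it allows, or 0.3 after adjustment over the 6 genes compared. This design cannot reach 0.05. Rgs2 by itself did not overlap between genotypes, so a ratio to a gene that stays level can be kept apart by Rgs2 alone. How many of all tested genes have such a ratio to Rgs2 was not counted.

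The remaining ratios overlapped between genotypes. The difference in the log2 ratio was 0.60 ± 0.23 against Rgs10 (exact p = 0.2), 0.76 ± 0.93 against Rgs3 (exact p = 0.5) and 0.49 ± 0.68 against Rgs18 (exact p = 0.6). Against Rgs1 it was -0.07 ± 0.28 (exact p = 0.9), and its sign turned to 0.04 without WT replicate 1 and to 0.18 without KO replicate 3. A change in Rgs1 of the same size as that in Rgs2 could therefore not be told from a smaller or larger one.

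**Figure D3:**
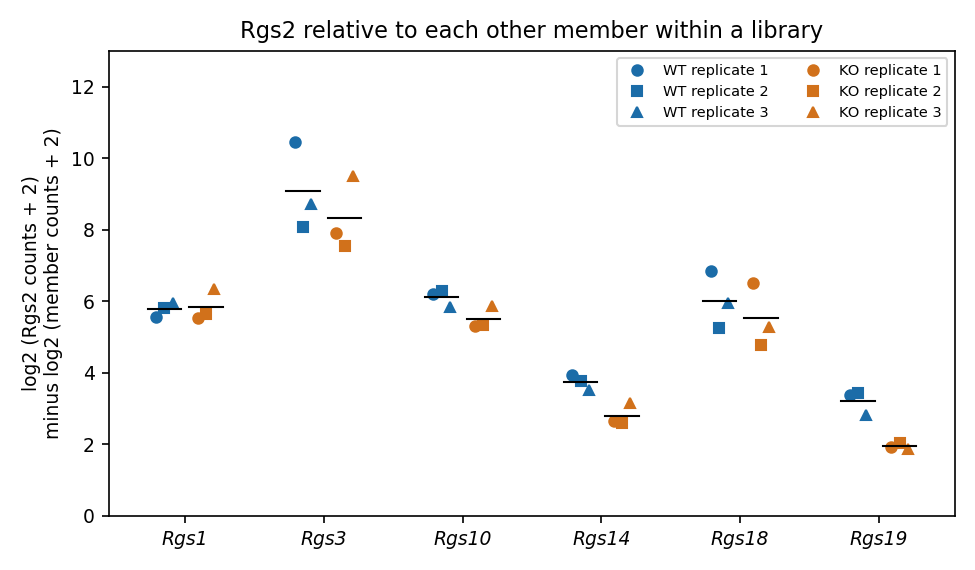
Log2 ratio of Rgs2 to each other RGS gene within each library (2 counts added to each gene), with WT and KO libraries as points and group means as bars. The ratios to Rgs19 and Rgs14 did not overlap between genotypes, for which the share over all tested genes was not counted. Those to Rgs1 lay at a mean of 5.77 in WT and 5.84 in KO libraries.

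The neighbours of Rgs2 on chromosome 1 were examined next. Rgs13, an R4 gene of germinal center B cells, starts 173.2 kb from the start of Rgs2. It was counted at 2.10, 5.13 and 0.681 CPM in WT and 3.09, 0.872 and 0.682 CPM in KO replicates 1 to 3, and the groups overlapped (log2 fold change 0.74 ± 0.70, adjusted p = 0.759, and -0.15 without WT replicate 2). Rgs1 starts 245.1 kb and Rgs18 771.3 kb from Rgs2 in the same direction. On the other side, only the nearest 3 genes of the count table were taken. They are outside the family, and none was called. Uchl5, a deubiquitinase gene, had a log2 fold change of 0.14 ± 0.16 (adjusted p = 0.81), Trove2, which encodes the Ro60 RNA-binding protein, 0.19 ± 0.25 (adjusted p = 0.83), and Glrx2, a glutaredoxin gene, -0.25 ± 0.15 (adjusted p = 0.544). The 4 tested RGS genes of this stretch had point estimates between 0.36 and 0.98, of which that of Rgs2 alone passed the test.

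**Figure D4:**
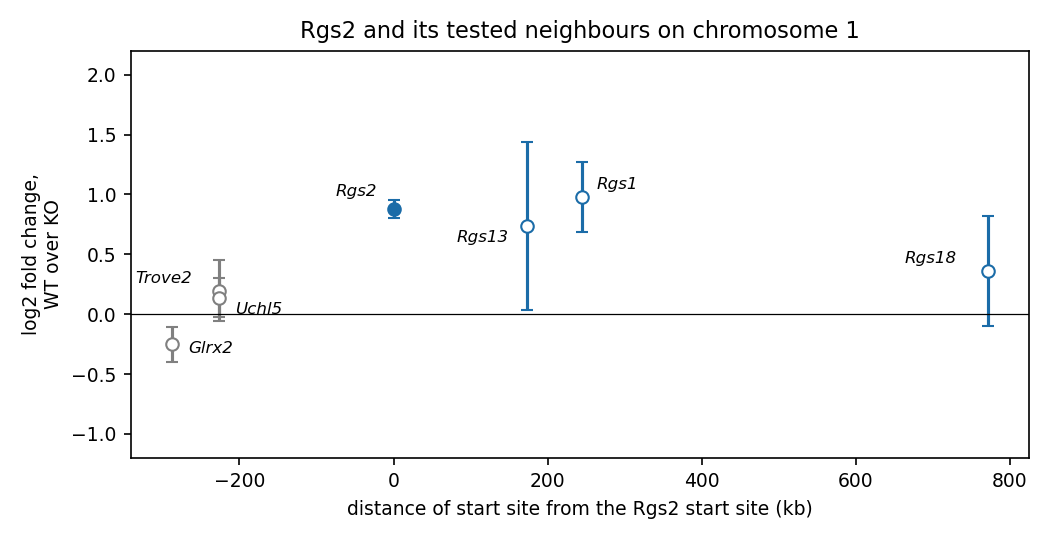
Log2 fold change (WT over KO, bars ± SE) of Rgs2 and its nearest tested genes on each side, all within 1000 kb. The horizontal axis is the distance between start sites in kb, with RGS genes in blue, other genes in gray and the called gene filled. The 4 RGS genes lie above 0 and Rgs2 has the smallest error.

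Genes of the wider G protein pathway were counted from lists fixed by name. Of 14 other RGS genes, 4 were in the table and 2 were tested, Rgs12 and Rgs13. Rgs12, which also carries a GoLoco motif, had a log2 fold change of -0.47 ± 0.44 (adjusted p = 0.753). Of 13 other genes with an RGS-like domain or a GoLoco motif, 10 were tested, with a median log2 fold change of -0.03. The member with the highest mean level, Arhgef1, whose RGS-like domain acts on G12 and G13 subunits, had 314.8 CPM in WT cells and 312.0 CPM in KO cells (0.01 ± 0.08, adjusted p = 0.97). In both lists edgeR, DESeq2 and limma-voom called 0 genes, and 0 had an unadjusted edgeR p under 0.05.

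G protein-coupled receptor kinases and arrestins end signals at the receptor rather than at the G protein. Of 10 such genes, 8 were tested, and edgeR, DESeq2 and limma-voom called 0 of them. The unadjusted edgeR p was under 0.05 for 1, which was lower in WT. Their median log2 fold change was -0.11, and 7 of the 8 point estimates were below 0. The member with the highest mean level, Adrbk1 (an older symbol of Grk2), had 394.8 CPM in WT cells and 431.4 CPM in KO cells, a log2 fold change of -0.13 ± 0.07 (adjusted p = 0.495).

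Among α subunits, the substrates of RGS proteins, 1 of 8 tested was called, Gna13, beside 1.82% of all tested genes. Gna13 encodes a subunit that takes part in confining germinal center B cells. It was higher in WT, at 582 CPM ± 30.4 against 437 CPM ± 11.8 (SD, n = 3), and its log2 fold change was 0.41 ± 0.07 (adjusted p = 0.000309). The median of the 8 was -0.08. Gnai2, the main Gi subunit of lymphocytes and the member with the highest mean level, had 1546 CPM in WT cells and 1670 CPM in KO cells (-0.11 ± 0.06, adjusted p = 0.498). The Gβ, Gγ and chaperone genes had 12 tested members with a median of 0.06, and 0 were called by edgeR, DESeq2 or limma-voom, with 1 higher and 1 lower at an unadjusted edgeR p under 0.05. Gnb1, the member with the highest mean level, had a log2 fold change of 0.04 (adjusted p = 0.888).

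Of 20 receptors of B cells that couple to Gi, Gq or G13, 17 were tested, and 4 were called, all higher in WT. Over all tested genes, 1.3% were called higher in WT. Cxcr4, the receptor of the chemokine CXCL12, had 1278 CPM ± 61.1 in WT cells and 961 CPM ± 72.1 in KO cells (SD, n = 3), a log2 fold change of 0.41 ± 0.07 (adjusted p = 0.000313). P2ry10, a lysophospholipid receptor, was at 740 CPM ± 67.3 and 497 CPM ± 16.6, a log2 fold change of 0.57 ± 0.07 (adjusted p = 4.58e-06). Gpr132, a receptor found on lymphocytes and macrophages, was at 183 CPM ± 18.4 and 109 CPM ± 6.66, a log2 fold change of 0.74 ± 0.09 (adjusted p = 4.75e-06). Ccr7, the receptor that draws B cells toward the T zone, was at 1281 CPM ± 43.2 and 1055 CPM ± 54.5 (0.28 ± 0.06, adjusted p = 0.0125). The call of Ccr7 was lost without KO replicate 1, at an adjusted p of 0.121, and without KO replicate 3, at 0.0648. With limma-voom 4 receptors were called, all higher in WT, and with DESeq2 5 were called, of which 1 was lower in WT. That receptor, named after its value was seen, was Gpr183, which guides B cells by oxysterols, with 534 CPM ± 70.5 in WT cells and 669 CPM ± 79.2 in KO cells. Its log2 fold change was -0.33 ± 0.10 with an edgeR adjusted p of 0.137, and it passed with DESeq2 at 0.0422, without WT replicate 2 at 0.00785 and without KO replicate 1 at 0.0249. The median over the 17 receptors was 0.04, with 9 above 0 and 8 below. These lists were compiled with results of these data known, and no difference between lists was tested.

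**Figure D5:**
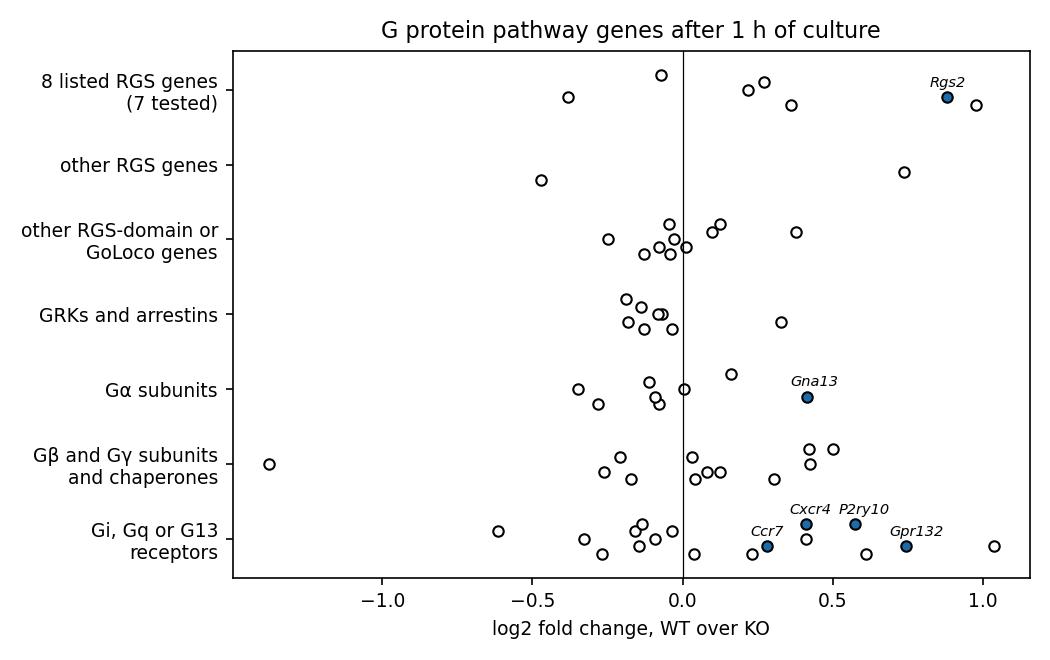
Log2 fold change (WT over KO) of each tested gene of the RGS list and of the 6 pathway lists, with called genes filled and named. Filled points are Rgs2, Gna13, Cxcr4, Ccr7, P2ry10 and Gpr132, and the other genes of each list lie on both sides of 0.

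RNA of other cells was counted with marker lists. The 7 tested myeloid markers summed to between 42.5 and 57.1 CPM in WT and between 36.9 and 41.8 CPM in KO libraries, with no overlap, and all 7 point estimates were above 0, while edgeR called 0 of them, with 0 at an unadjusted p under 0.05. T cell markers summed to between 44.0 and 61.3 CPM in WT and between 33.9 and 51.9 CPM in KO. All 4 tested T cell markers had point estimates above 0, and 0 were called. NK cell markers summed to between 7.83 and 14.1 CPM in WT and between 6.53 and 7.30 CPM in KO, with no overlap. Of the 2 tested NK cell markers, 1 was above 0, Gzma (log2 fold change 1.09, edgeR unadjusted p = 0.0137, adjusted p = 0.235), and 1 was below. Rgs1 and Rgs18 are also expressed in such cells. The part of these cells in the values of any RGS gene, Rgs2 included, was not tested. Germinal center B cell markers summed to between 10.2 and 17.3 CPM in WT and between 10.5 and 13.2 CPM in KO. Marginal zone B cell markers lay between 1275 and 1365 CPM in WT and between 1251 and 1446 CPM in KO. Plasma cell markers lay between 424.7 and 505.5 CPM in WT and between 545.6 and 609.1 CPM in KO. Of these, 1 of 4 was called lower in WT, beside 0.514% of all tested genes. It was Irf4 (log2 fold change -0.38, edgeR adjusted p = 0.0043). Irf4 made up most of these sums, with mean levels of 373.4 (WT) and 484.1 (KO) CPM. Sdc1, Prdm1 and Xbp1 had log2 fold changes of 0.36, -0.003 and 0.02, and none of them was called. The higher plasma cell sum of KO libraries was thus in Irf4, and a difference in plasma cell RNA was not tested. Erythroid markers lay between 29.7 and 64.6 CPM in WT and between 34.2 and 120.0 CPM in KO.

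Genes whose pattern was most like that of Rgs2 were taken by Pearson correlation of log2 CPM over the 6 libraries, among the 9681 genes whose mean count was 20 or more. They were Nab1 (r = 1.00), which encodes a corepressor of EGR factors, Ier5l (r = 0.997), an immediate early response family gene, Blm (r = 0.995), a DNA helicase gene, Slc40a1 (r = 0.991), the iron exporter ferroportin, and Ppp1r16b (r = 0.985), a regulatory subunit of protein phosphatase 1. The libraries fall into 2 genotypes and share depth and scaling, so any gene that differs between genotypes correlates with Rgs2 here. A like pattern did not require a like size of difference. Nab1 had 124.9 CPM ± 2.98 in WT cells and 110.0 CPM ± 1.61 in KO cells (log2 fold change 0.18, adjusted p = 0.407), whereas Ier5l had a log2 fold change of 2.13 (adjusted p = 0.000694). By Spearman correlation, 14 genes tied at the highest value, of which Slc40a1 was 1. Among the RGS genes, r with Rgs2 was 0.86 for Rgs1, 0.57 for Rgs10, 0.29 for Rgs18, -0.07 for Rgs3, -0.41 for Rgs14 and -0.76 for Rgs19.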

How the data were processed

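Follicular B cells from male mice gave 3 WT and 3 KO RNA libraries after culture for 1 h. Per the study's methods, the authors primed libraries at 3′ ends (QuantSeq), aligned 50 bp single-end reads to mm10 using STAR, and used HTSeq to count reads on each gene. Versions, annotation and the use of strand are not given in the sources used here. The deposited values are raw counts per gene, whole numbers without normalization. Every gene in the table had at least 10 counts in total over the libraries.

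Genes were filtered with filterByExpr and libraries scaled by TMM factors in edgeR 4.0.16 (R 4.3.3). WT and KO were compared with the quasi-likelihood F test with robust dispersions, two-sided, fitted on all 10514 genes, with Benjamini-Hochberg adjustment over all of them and a threshold of 0.05. CPM are counts times 1000000 divided by the scaled library size. The SE of a log2 fold change is its size over the root of F. Ratios of Rgs2 to other genes (2 counts added) were compared by an exact permutation test. The edgeR, limma-voom and DESeq2 fits were also run on simulated data, and the permutation test was not. Replicates differed more than copies of one library would (chi-square per degree of freedom 6.89 to 10.9), and p-values measure the spread between these libraries. Reads carry no molecular identifiers.

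The genes named were the 8 RGS genes, called members of the pathway lists and the member of each list with the highest mean CPM, chromosomal neighbors, and the 5 genes most correlated with Rgs2. The members and lists were chosen with earlier results of these data known. Positions are from GENCODE M21 and promoters from RefSeq GRCm38.p6. Alternatives were DESeq2 1.42.0 (the study's tool), limma-voom (limma 3.58.1), ordinary dispersions, RLE or upper-quartile factors, library totals, no filter or a minimum mean of 50 counts, the replicate number as a block, 0.5 added counts, and omission of each library.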

Additional observations from a re-analysis of the deposited data

How the results depend on the processing

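Rgs2 was called in every one of the 15 alternative fits, with a log2 fold change of 0.87 to 0.88 under 9 alternatives and 0.82 to 0.96 when each library was left out in turn (highest adjusted p 3.26e-06). Rgs1 was called in none of them (0.97 to 0.99, and 0.78 to 1.14 with a library left out, adjusted p 0.0694 to 0.407). Of 89 values for the other 6 RGS genes, 83 kept their direction and side of the threshold. With the replicate number as a block, 2 RGS genes were called, because Rgs19 then passed (-0.38, adjusted p = 0.0347), and 281 genes were called over all in place of 191. Correlations of same-numbered libraries were 0.05, 0.01 and 0.04, and each library correlated best with its own number. The study named no covariate and the main fit used none, so whether the numbers mark pairs was left undecided. The number of genes called was 170 to 281 under these alternatives (258 with DESeq2) and 91 to 183 with a library left out. It was 113 without KO replicate 2 and 91 without KO replicate 3, where fewer samples were fitted.

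With a library left out, several uncalled values changed sign: Rgs3 ranged from -0.55 to 0.70, Rgs14 from -0.18 to 0.00098, Rgs18 from -0.15 to 0.71, Rgs13 from -0.15 to 1.74, Arhgef1 from -0.045 to 0.082, and the difference of Rgs2 and Rgs1 from -0.22 to 0.18. Blm and Slc40a1 were called with DESeq2 (adjusted p = 0.0268 and 0.0495), and the call of Ppp1r16b was lost without WT replicate 1, KO replicate 1 or KO replicate 2 (adjusted p up to 0.147). Rgs3, Rgs12, Rgs13 and Gnb4 fell under the filter of 50 counts and have no value there. Gpr183 was called lower in WT with the replicate block as well (adjusted p = 0.00171). Depth limits Rgs3 most, with as few as 3 reads in a library, and then Rgs10, Rgs1 and Rgs18, with 445, 473 and 489 reads over all libraries.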

Other observations

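Among the pathway lists, 12 genes were in the table but fell under the filter on low counts and were not tested. Their counts are given as values, and the genes named here were chosen after their values were seen. For 4 of the 12, every WT library was below every KO library, as for 5.27% of all 1917 untested genes, and for 0 of the 12 was every WT library above, as for 4.33%. Gnb5, the Gβ subunit that pairs with RGS proteins of the R7 family, had 0 reads in all 3 WT libraries and 3, 11 and 7 reads in KO replicates 1 to 3. A count of 0 allows up to 3 counts in a library. Gpsm2, a GoLoco protein known for orienting the mitotic spindle, had 0, 1 and 4 reads in WT and 14, 5 and 11 reads in KO. Gna14, a subunit of the Gq class, had 2, 0 and 0 reads in WT and 13, 4 and 7 reads in KO. Arrdc4, an arrestin-domain gene, had 1, 2 and 0 reads in WT and 3, 3 and 8 reads in KO. Rgs9, an R7 member, had 0, 0 and 3 reads in WT and 4, 8 and 3 reads in KO, and the groups met. The other 7 genes overlapped between genotypes.

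Gnb4, a Gβ subunit gene that passed the filter, had 1.52 CPM ± 1.24 in WT cells and 4.07 CPM ± 0.13 in KO cells (SD, n = 3), a log2 fold change of -1.38 ± 0.56 that was not called (edgeR adjusted p = 0.283). It was -2.30 without WT replicate 1 (adjusted p = 0.0868) and -0.996 without WT replicate 3 (adjusted p = 0.448). It was also chosen after its value was seen.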
